A study of Mus musculus with 36 samples.

Results

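Of 18193 mouse genes measured on the arrays, 18 were chosen for standing higher in DN3 thymocytes and in pro-B cells than in every earlier progenitor measured beside them. Each gene was represented by its probe set with the highest mean, among probe sets assigned to exactly 1 gene. A gene was a member when its mean log2 level on the 3 DN3 arrays and its mean on the 3 pro-B arrays each lay at least 1 above the mean of each of 4 progenitor populations (ETP, CLP, LSK and HSC) on the arrays deposited with them. A difference of 1 on this scale is 2-fold. The conditions were met by 21 genes, and 3 of these are among 12 names that the rule left out. The members, in order of the smaller of their 2 margins over the progenitors, are Lig4, Endou, Rras2, Tubb2b, Scn4b, Bst1, Prkcb, Slamf6, Plxdc1, Epg5, Fbxl12, Gngt2, Sit1, Akap2, E2f2, Ddc, Tubb3 and 4921525O09Rik.

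The study profiled 8 sorted populations of C57BL6 mice on 36 arrays. DN3 thymocytes were on 6 arrays and pro-B cells (labelled B-cell progenitors) on 3. Kit+ DN2 thymocytes (DN2Kit+) were on 3 arrays, and early thymic progenitors sorted as ETPFlt3hi (here ETP) on 6, with 2 further arrays titled adult ETP. A population titled CLP was on 4 arrays, and its labels call it a putative progenitor that seeds the thymus. LSKFlt3hi IL7R+ cells (here LSK), labelled as thymic seeding progenitors, and haematopoietic stem cells sorted as LSKFlt3-CD48-CD150+ (here HSC) were on 6 each. The labels give every array an age of 1 week and both sexes, including the arrays titled adult, and name no transgene, mutation or treatment. The arrays came in 2 deposit sets. Set 1 holds 3 arrays each of DN3, DN2, ETP, LSK and HSC, every sample being a pool of several mice per its label. Set 2 holds 3 arrays each of DN3, pro-B, ETP, LSK and HSC, the 4 CLP arrays and the 2 adult ETP arrays. The labels do not say whether the mice behind the sets were different ones, and the series text calls the replicates biological.

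DN3 thymocytes and pro-B cells are the stages at which T and B lineage cells assemble the first chain of their antigen receptors. The Rag recombinase cuts the receptor gene segments, and the nonhomologous end joining enzymes, with DNA ligase IV (encoded by Lig4) as the final step, rejoin them. In both lineages the new chain is then tested in a pre-receptor that signals through kinases and adaptors, and cells that pass divide. ETP, DN2 and DN3 are successive stages in the thymus, and commitment to the T lineage is completed between DN2 and DN3.

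The 2 sets were normalized apart. Array medians over all probe sets lay between 5.12 and 5.22 in set 1 and between 5.84 and 5.95 in set 2, so levels were compared only within a set. The labelled identities were checked against marker genes. The mean over 7 measured DN3 markers of 8 (Ptcra, Cd3e, Cd3g and others) was 10.82 to 11.22 on the DN3 arrays of set 2, against 4.50 to 4.93 on the pro-B arrays and 4.80 to 5.25 on the ETP arrays. The mean over 7 measured pro-B markers of 8 (Pax5, Ebf1, Cd79a and others) was 11.24 to 11.41 on the pro-B arrays, 5.86 to 6.19 on the DN3 arrays, 8.95 to 9.25 on the LSK arrays and 5.68 to 6.03 on the ETP arrays. Neither labelled identity went against its markers, and the LSK and CLP arrays of set 2 carried pro-B markers at levels between those of pro-B and ETP. Granulocyte and monocyte markers (9 measured of 10) averaged 6.72 to 7.20 on the pro-B arrays and 4.68 to 4.98 on the DN3 arrays of set 2. They stood at 8.67 on CLP replicate 1, at 7.15 on HSC replicate 5 and, in set 1, at up to 7.77 on the LSK arrays. Double-positive thymocyte markers (7 measured of 8) averaged 8.09 to 8.16 on the DN3 arrays of set 2, against 6.61 to 6.72 on the pro-B arrays and 6.00 to 6.13 on the ETP arrays. Within that list Rag1 averaged 12.65 in DN3 and 6.91 in ETP and Themis 10.28 in DN3 and 4.33 in ETP, while Cd4 averaged 5.84 in DN3 and 5.93 in ETP, Cd8a 6.95 in DN3 and 6.37 in ETP, and Cd8b1 4.95 in DN3 and 4.57 in ETP. The part of the granulocyte and monocyte signal in the members' levels was not tested, beyond the fits without single arrays given with the results. In sorted populations measured in bulk, fewer cells with a transcript and less transcript per cell cannot be told apart.

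The members were chosen by their measured log2 levels in set 2, so these values are given as a description without a test. The rule was met by 0.0989% of all genes. Its DN3 condition alone was met by 195 genes and its pro-B condition by 194, and the 21 genes that met both are 10.8% of each list. The 2 conditions share the same progenitor arrays. Just inside the threshold of 1 were Ddc with a smaller margin of 1.01, Tubb3 with 1.00 and 4921525O09Rik with 1.00. Just outside were Hsdl1 with 0.9955, Spon1 with 0.97 and Pla2g12a with 0.96. Array by array, all 3 DN3 arrays lay above all 13 progenitor arrays for 17 members (Akap2 being the other), where 2.7% of all genes did so. All 3 pro-B arrays did so for 16 (the others being Tubb3 and 4921525O09Rik), where 6.59% of all genes did so, and both held for 15 members and 0.39% of all genes. These arrays chose the members, and nothing is read from the counts. Among the progenitors, the mean was highest in LSK for 9 members, in ETP for 5, in CLP for 4 and in HSC for 0, while HSC had the lowest mean for 10.

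**Figure D1:**
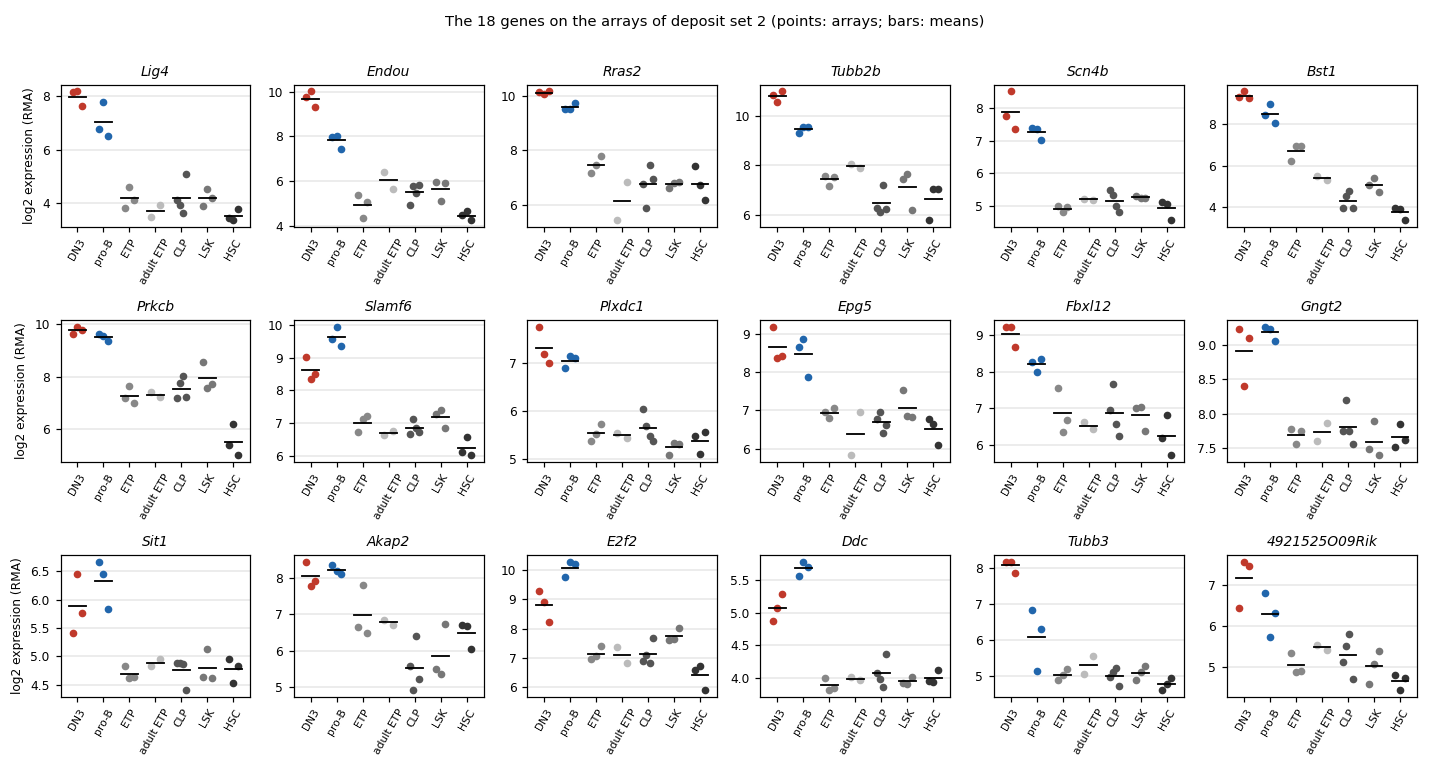
Log2 expression of the 18 members on the arrays of set 2, 1 panel a gene, with a point for each array and a bar for the mean of each population. The DN3 and pro-B means lie at least 1 above each of the ETP, CLP, LSK and HSC means by the rule, and the pro-B arrays of Tubb3 are the most spread.

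Lig4 had the largest smaller margin. Its DN3 arrays read 8.15, 8.18 and 7.64 and its pro-B arrays 6.78, 7.78 and 6.54, while the 13 progenitor arrays ran from 3.36 to 5.10. No progenitor array came within 1 of the lowest pro-B array, and the progenitor means differed among themselves by 0.68. Endou, which encodes a poly(U)-specific endoribonuclease, read 9.78, 10.02 and 9.30 in DN3, 7.996, 8.04 and 7.44 in pro-B and 4.25 to 5.97 in the progenitors. The 3 ranges did not overlap, with pro-B between DN3 and the progenitors.

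Of the members that encode signalling proteins, Rras2 (a Ras-family GTPase) read 10.14, 10.05 and 10.15 in DN3, 9.52, 9.51 and 9.75 in pro-B and 5.89 to 7.81 in the progenitors. Prkcb, the beta isoform of protein kinase C that acts below the B cell receptor, read 9.63, 9.90 and 9.78 in DN3 and 9.62, 9.55 and 9.35 in pro-B. Its progenitor arrays ran from 5.01 in HSC to 8.54 in LSK, and the progenitor means spread over 2.40, so the margin of 1.57 in pro-B is over LSK. Sit1, a transmembrane adaptor of lymphocytes, was flat among the progenitors, whose means spread over 0.10. It read 5.42, 6.46 and 5.77 in DN3 and 6.67, 6.45 and 5.84 in pro-B, against 4.41 to 5.14 in the progenitors. All progenitor arrays of Sit1 lay below the lowest array median of set 2, at 5.84. So did the DN3 arrays at 5.42 and 5.77, and the lowest pro-B array was level with that median. Gngt2 (a G protein gamma subunit) and Akap2 (an anchor of protein kinase A) had DN3 margins of 1.09 and 1.06 and pro-B margins of 1.37 and 1.24. One ETP array of Akap2, at 7.81, lay above the lowest DN3 array, at 7.77.

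The surface and membrane members differed in how they varied among the progenitors. Bst1, the ADP-ribosyl cyclase CD157, read 9.30, 9.56 and 9.24 in DN3 and 8.44, 8.95 and 8.03 in pro-B, and its progenitor means ran from 3.74 in HSC to 6.70 in ETP. Slamf6, the SLAM-family receptor Ly108, read 9.03, 8.36 and 8.48 in DN3 and 9.57, 9.95 and 9.34 in pro-B, against 6.02 to 7.40 in the progenitors. Scn4b (an auxiliary subunit of voltage-gated sodium channels) and Plxdc1 (a transmembrane protein with a plexin domain) were nearly flat among the progenitors, with means that spread over 0.34 and 0.40. Their highest progenitor means, 5.27 and 5.64, lay below the array medians of set 2 (5.84 to 5.95). Scn4b read 7.74, 8.50 and 7.36 in DN3 and 7.40, 7.36 and 7.01 in pro-B, against 4.57 to 5.50 in the progenitors. Bst1 had the widest progenitor spread of the 18, at 2.96, and Scn4b and Plxdc1 were among those with the narrowest.

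The beta-tubulin isotypes Tubb2b and Tubb3, best known from neurons, had wide DN3 margins of 3.40 and 2.99 and unequal pro-B margins of 2.05 and 1.00. Tubb3 read 8.17, 8.19 and 7.89 in DN3 and 6.84, 5.15 and 6.30 in pro-B, against 4.61 to 5.27 in the progenitors. Pro-B replicate 2, at 5.15, lay within the progenitor range, so the pro-B condition for Tubb3 rests on the other 2 pro-B arrays. E2f2, an E2F transcription factor of cell cycle entry, had the opposite tilt, with a DN3 margin of 1.05 and a pro-B margin of 2.33. Its pro-B arrays read 9.77, 10.29 and 10.20 and lay above the DN3 arrays, at 9.27, 8.90 and 8.24. Epg5 (an autophagy protein) had margins of 1.60 in DN3 and 1.41 in pro-B, and Fbxl12 (an F-box subunit of ubiquitin ligases) of 2.18 and 1.33. Ddc, the decarboxylase that makes dopamine and serotonin, had margins of 1.01 and 1.62, and the noncoding RNA 4921525O09Rik of 1.89 and 1.00. The Ddc means of 5.08 in DN3 and 5.69 in pro-B were themselves below the lowest array median of set 2, at 5.84.

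Sequence around the start of transcription was available for 10 of the members in the RefSeq promoter table used here (Lig4, Rras2, Scn4b, Prkcb, Slamf6, Fbxl12, Sit1, E2f2, Ddc and Tubb3). Endou, Tubb2b, Bst1, Plxdc1, Epg5, Gngt2, Akap2 and 4921525O09Rik were not matched. The windows hold 250 bases before and 50 after the start. They were searched on both strands for CAGGTG and CAGCTG, forms of the E-box CANNTG that E proteins bind in lymphoid genes, and for TGTGGT, the core bound by Runx factors. CAGGTG was found in 1 of the 10 windows (Sit1), against 20.0% of all 27025 promoters in the table. CAGCTG was found in 3 of the 10 (Lig4, Prkcb and Sit1), against 16.1% of all, and TGTGGT in 0 of the 10, against 16.9%. The windows of the first 4 members by margin that the table lists are printed here because the results below turn on these genes and because they differ in the motif, with CAGCTG in capitals. From RefSeq on GRCm38.p6 they are Lig4 at chr8:9977631-9977930 on the minus strand, Rras2 at chr7:114117732-114118031 on the minus strand, Scn4b at chr9:45138374-45138673 on the plus strand and Prkcb at chr7:122288875-122289174 on the plus strand, each read 5′ to 3′ in the direction of its gene.
Lig4: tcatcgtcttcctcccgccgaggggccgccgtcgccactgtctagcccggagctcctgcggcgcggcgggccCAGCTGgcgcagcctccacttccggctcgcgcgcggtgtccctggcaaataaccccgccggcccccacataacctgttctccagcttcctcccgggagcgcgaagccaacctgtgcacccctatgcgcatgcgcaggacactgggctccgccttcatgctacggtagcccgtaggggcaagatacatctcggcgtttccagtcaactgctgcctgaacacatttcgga
Rras2: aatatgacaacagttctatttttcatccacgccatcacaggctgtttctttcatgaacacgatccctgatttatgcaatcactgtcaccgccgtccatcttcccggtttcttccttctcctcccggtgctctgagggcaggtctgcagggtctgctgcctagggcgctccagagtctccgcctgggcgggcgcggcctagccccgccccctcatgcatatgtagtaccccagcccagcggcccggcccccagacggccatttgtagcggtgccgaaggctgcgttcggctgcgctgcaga
Scn4b: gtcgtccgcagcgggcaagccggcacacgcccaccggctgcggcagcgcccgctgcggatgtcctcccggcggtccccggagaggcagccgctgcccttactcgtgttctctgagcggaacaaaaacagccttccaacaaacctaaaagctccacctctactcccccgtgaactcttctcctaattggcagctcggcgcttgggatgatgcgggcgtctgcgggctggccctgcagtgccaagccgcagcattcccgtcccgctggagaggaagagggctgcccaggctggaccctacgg
Prkcb: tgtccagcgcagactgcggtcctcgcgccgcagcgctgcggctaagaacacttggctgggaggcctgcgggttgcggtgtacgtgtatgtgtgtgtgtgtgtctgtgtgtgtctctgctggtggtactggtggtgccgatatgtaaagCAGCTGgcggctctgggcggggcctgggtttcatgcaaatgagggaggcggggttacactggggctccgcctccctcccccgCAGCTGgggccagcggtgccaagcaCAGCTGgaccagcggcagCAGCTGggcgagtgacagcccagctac
The Prkcb window holds CAGCTG 4 times and the Lig4 window holds it 1 time, while the Rras2 and Scn4b windows hold neither E-box form searched. A match describes the letters in the window and is not evidence of a bound site.

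The DN3 condition could be tested again on set 1, whose arrays the rule did not use. The members were again high in DN3: the DN3 mean lay at least 1 above the HSC, LSK and ETP means of set 1 for 16 of the 18 (88.9%), against 1.7% of all genes. The other members were Slamf6, 0.98 above ETP, and Ddc, 0.96 above HSC. All 3 DN3 arrays lay above all 9 HSC, LSK and ETP arrays for 18 of 18 members, against 4.89% of all genes. The median distance of the DN3 mean above the highest of the 3 progenitor means was 2.25 over the members and -0.12 over all genes. Of the 195 genes that met the DN3 condition in set 2, whether or not they met the pro-B condition, 84.1% met it in set 1, so the members' share stands beside a similar one for genes high in DN3. Pro-B cells and CLP were measured in set 2 alone, and the pro-B condition has no second set of arrays here.

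In the limma fit of set 1, a gene was called at a Benjamini-Hochberg adjusted p under 0.05 over all genes and a difference of at least 1. Of the 18 members, 17 were called higher in DN3 than in ETP and 0 lower, against 2.56% and 3.73% of all genes. DN3 against LSK gave 18 higher and 0 lower, against 3.03% and 4.87%. DN3 against HSC gave 17 higher and 0 lower, against 5.23% and 7.54%. The median difference of the members was 2.25 from ETP, 2.78 from LSK and 3.24 from HSC, where the medians of all genes were 0.02, 0.04 and 0.06. These comparisons share the DN3 arrays.

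**Figure D2:**
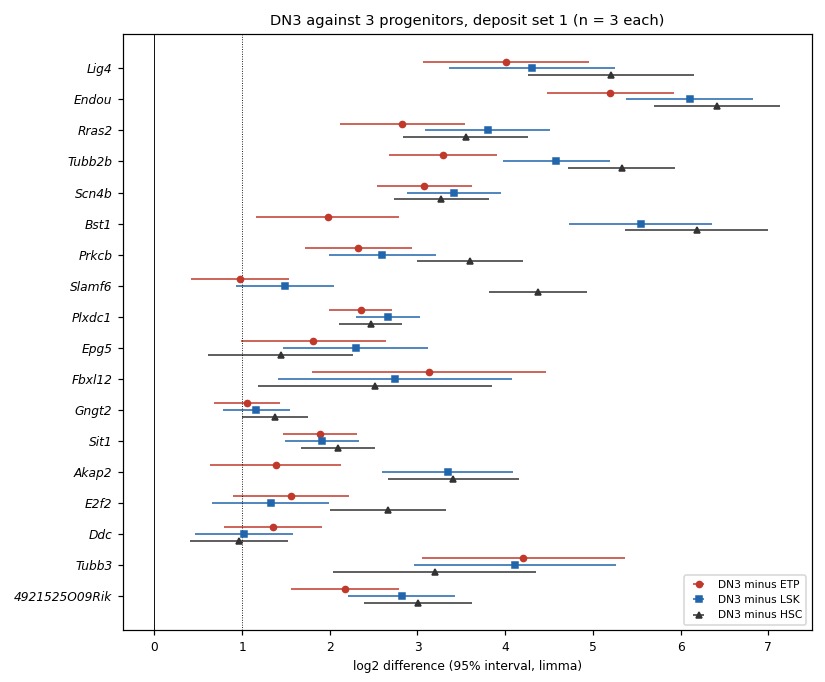
Log2 difference of DN3 from ETP, from LSK and from HSC in set 1 for each member, with 95% intervals from the limma fit and a line at the threshold of 1. The differences of all 18 members lie above 0, with Endou, Bst1 and Tubb2b farthest out against HSC.

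Endou showed the largest of the members' differences from ETP. It read 10.07, 10.69 and 10.52 in DN3 and 5.20, 5.18 and 5.30 in ETP, a difference of 5.20 (SE 0.33, adjusted p = 1.39e-07). Tubb3 read 8.13, 8.50 and 8.20 in DN3 and 4.08, 4.56 and 3.56 in ETP (4.21, SE 0.54, adjusted p = 0.00011). Lig4 read 8.01, 8.45 and 8.95 in DN3 and 4.40, 4.60 and 4.38 in ETP (4.01, SE 0.44, adjusted p = 2.83e-05). For each of these the lowest DN3 array stood more than 3 above the highest ETP array. Tubb2b was higher by 3.29 (SE 0.28, adjusted p = 2.81e-06) and Fbxl12 by 3.13 (SE 0.62, adjusted p = 0.00421).

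At the small end, Slamf6 read 7.91, 8.55 and 8.62 in DN3 and 7.60, 7.19 and 7.35 in ETP. The arrays did not overlap, but the difference of 0.98 (SE 0.26, adjusted p = 0.0283) was under the threshold of 1. Gngt2 was higher by 1.06 (adjusted p = 0.00112), Ddc by 1.35 (adjusted p = 0.00325), Akap2 by 1.38 (adjusted p = 0.0198), E2f2 by 1.56 (adjusted p = 0.00426) and Epg5 by 1.81 (adjusted p = 0.00684). The Akap2 call was lost when DN3 replicate 2, DN3 replicate 3 or any ETP replicate was left out (adjusted p from 0.0533 to 0.0772), and the Gngt2 difference fell just under 1 without DN3 replicate 2 or ETP replicate 1 (0.99 and 0.96). The Ddc difference from ETP averaged over its probe sets was 0.66, under the threshold. Ddc in DN3 against LSK was called at 1.02 (adjusted p = 0.0166), but the call was lost with the mean of probe sets (0.46), with quantile normalization (0.96), without DN3 replicate 2 or 3 and without LSK replicate 1 (0.91 to 0.94). Ddc in DN3 against HSC, at 0.96 (adjusted p = 0.0147), was the other member not called. Without LSK replicates 1 and 3, whose granulocyte markers were raised, 15 of the 18 members were called higher in DN3 than in LSK. The calls of Fbxl12, E2f2 and Ddc, with differences of 2.99, 1.44 and 1.05 from the remaining array, were the ones lost, and that array was assumed to vary like those of the other populations.

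The distance from the earlier populations varied widely by gene. Bst1 read 8.60, 9.53 and 9.41 in DN3, 6.71, 7.71 and 7.19 in ETP and 3.14, 2.87 and 2.98 in HSC, so it was 1.97 above ETP and 6.18 above HSC (adjusted p = 0.00341 and 4.41e-08). Slamf6 likewise was 0.98 above ETP and 4.38 above HSC (adjusted p = 3.45e-08 for HSC), with HSC arrays at 4.14, 3.43 and 4.38. For both genes every ETP array also lay above every HSC array. For Tubb3 (3.20 from HSC and 4.21 from ETP), Fbxl12 (2.52 and 3.13), Ddc (0.96 and 1.35) and Epg5 (1.44 and 1.81) the order of the means was reversed, but their HSC and ETP arrays overlapped. The HSC arrays read 6.79, 4.20 and 4.24 for Tubb3 and 5.02, 7.05 and 8.36 for Fbxl12. The order for Tubb3 thus leans on HSC replicate 1 and that for Fbxl12 on HSC replicate 3. Whether the distances from HSC and from ETP differ was not tested.

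**Figure D3:**
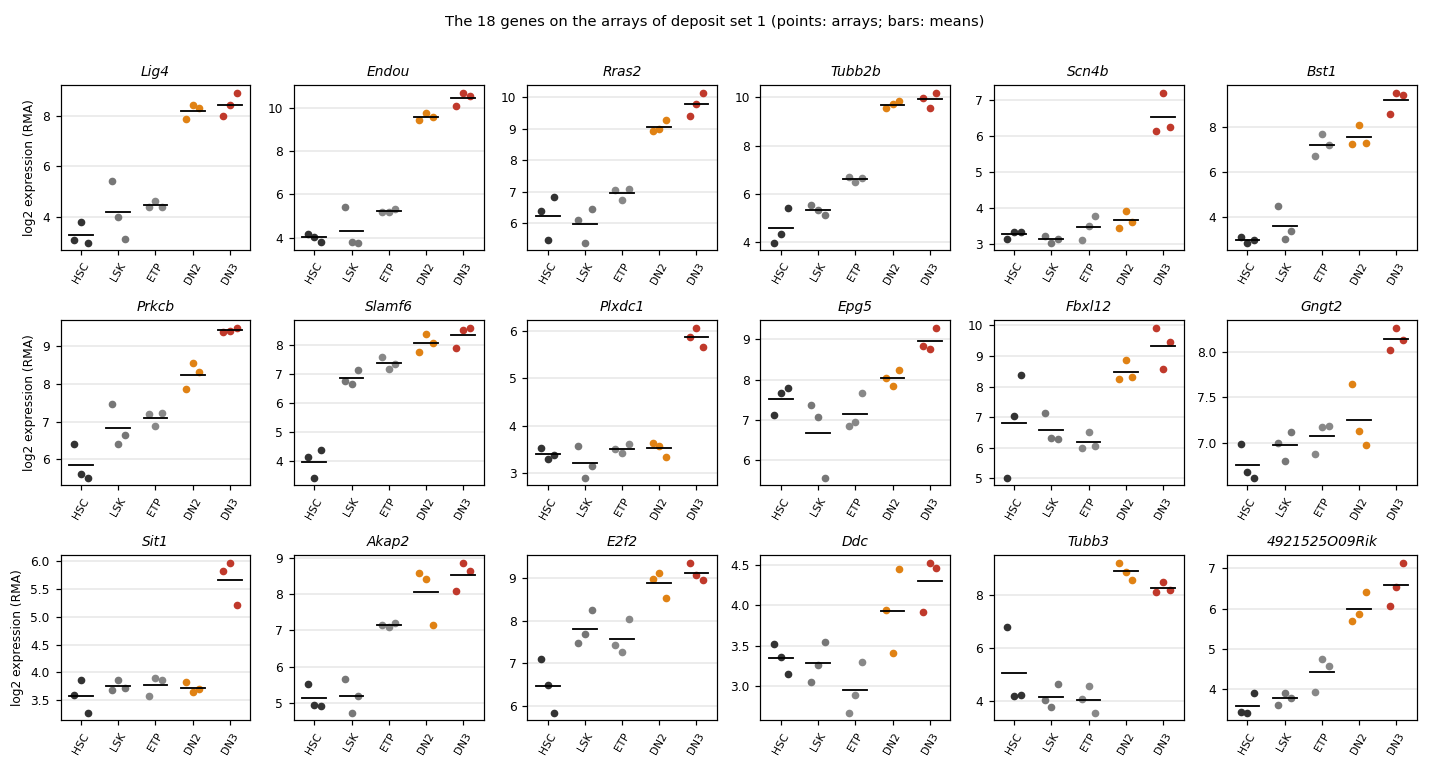
Log2 expression of the 18 members on the 15 arrays of set 1 in the order HSC, LSK, ETP, DN2 and DN3, with a point for each array and a bar for each mean. Endou, Lig4, Tubb2b and Tubb3 stand near their DN3 level in DN2, while Scn4b, Plxdc1 and Sit1 stand near their ETP level there.

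DN2 thymocytes, which lie between ETP and DN3 and which the conditions of the rule did not use, separated some of the members by the step at which they differed. Slamf6, Epg5, Fbxl12, Gngt2, Akap2 and Ddc were called at neither step. From ETP to DN2, 8 members were called higher in DN2 and 0 lower, against 1.34% and 1.37% of all genes, with a median difference of 1.06 for the members and -0.02 for all genes. From DN2 to DN3, 5 members were called higher in DN3 and 0 lower, against 0.868% and 1.42%, with medians of 0.78 and 0.03. The 2 steps share the DN2 arrays. The members were chosen for DN3 standing above ETP in set 2, so a rise over the 2 steps together was likely beforehand. The counts higher and lower are therefore not read against the shares of all genes. They describe only the step at which each member differed.

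The members called at the first step were Tubb3 (4.83, SE 0.54, adjusted p = 7.31e-05), Endou (4.35, SE 0.33, adjusted p = 1.86e-06), Lig4 (3.77, SE 0.44, adjusted p = 0.000126), Tubb2b (3.08), Rras2 (2.10), 4921525O09Rik (1.59), E2f2 (1.31) and Prkcb (1.14). Lig4 arrays read 4.40, 4.60 and 4.38 in ETP, 7.89, 8.45 and 8.34 in DN2 and 8.01, 8.45 and 8.95 in DN3. The DN2 and DN3 ranges overlapped and both lay clear of ETP. For Tubb3 the DN2 arrays, at 9.23, 8.89 and 8.59, lay above all DN3 arrays, but DN3 against DN2 (-0.63, SE 0.54, adjusted p = 0.585) did not pass the test. The calls of E2f2 and Prkcb, with adjusted p of 0.0283 and 0.039, were the least firm and were lost in most fits that left out an ETP or DN2 array. With the mean of probe sets, 4921525O09Rik stood at 0.93 and Prkcb at 0.71, under the threshold, and 6 members were called. Fbxl12 had a difference of 2.29 with non-overlapping arrays, at 8.25, 8.88 and 8.32 in DN2 and 5.99, 6.53 and 6.07 in ETP. It did not pass the test (adjusted p = 0.0645), with HSC arrays at 5.02, 7.05 and 8.36 in the same fit.

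The members called at the second step were Scn4b (2.88, SE 0.25, adjusted p = 1.15e-05), Plxdc1 (2.34, SE 0.17, adjusted p = 2.27e-06), Sit1 (1.94, SE 0.19, adjusted p = 4.26e-05), Bst1 (1.62, SE 0.38, adjusted p = 0.0281) and Prkcb (1.18, SE 0.28, adjusted p = 0.0311). Scn4b arrays read 3.10, 3.51 and 3.77 in ETP, 3.44, 3.92 and 3.62 in DN2 and 6.13, 7.22 and 6.27 in DN3. Plxdc1 arrays read 3.51, 3.44 and 3.62 in ETP, 3.65, 3.58 and 3.36 in DN2 and 5.88, 6.07 and 5.67 in DN3. In both genes DN2 overlapped ETP and every DN3 array stood clear above. Sit1 followed the same order, at 3.58, 3.90 and 3.86 in ETP, 3.82, 3.65 and 3.70 in DN2 and 5.82, 5.98 and 5.21 in DN3. All ETP and DN2 arrays of Scn4b, Plxdc1 and Sit1 lay below the lowest array median of set 1, at 5.12. RMA compresses differences near background, so a change between ETP and DN2 at these levels could be missed. The Bst1 call was lost without DN3 replicate 2 or 3 or DN2 replicate 1 or 3 (adjusted p from 0.0833 to 0.113), and the Prkcb call without any DN3 replicate or without DN2 replicate 1 or 3 (adjusted p from 0.0637 to 0.133). Gngt2 passed the adjusted p but not the 2-fold threshold at this step (0.89, adjusted p = 0.0112). Prkcb was the only member called at both steps, with arrays at 7.21, 6.88 and 7.24 in ETP, 7.86, 8.56 and 8.33 in DN2 and 9.40, 9.40 and 9.50 in DN3.

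The difference between the steps was tested directly, a contrast chosen after these values had been seen. The first step was larger than the second for Tubb3 (by 5.46, SE 0.93, adjusted p = 0.00625), Lig4 (3.53, SE 0.76, adjusted p = 0.0317), Endou (3.50, SE 0.58, adjusted p = 0.00532) and Tubb2b (2.87, SE 0.49, adjusted p = 0.00677), against 1.08% of all genes. The second step was larger for Scn4b (-2.68, SE 0.43, adjusted p = 0.00447), Plxdc1 (-2.34, SE 0.29, adjusted p = 0.000501) and Sit1 (-2.001, SE 0.34, adjusted p = 0.00579), against 0.621% of all genes. Most genes do not rise from ETP to DN3 as the members were chosen to, so these shares are not a like comparison. For the other 11 members, Prkcb (-0.04) and Epg5 (-0.05) among them, the difference between the steps did not pass the test. Without DN2 replicate 1, 2 of the 4 members with a larger first step passed. The number was 3 without DN3 replicate 1 or 2, any ETP replicate, or DN2 replicate 2 or 3. It was also 3 with the replicate block, and all 4 passed without DN3 replicate 3.

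**Figure D4:**
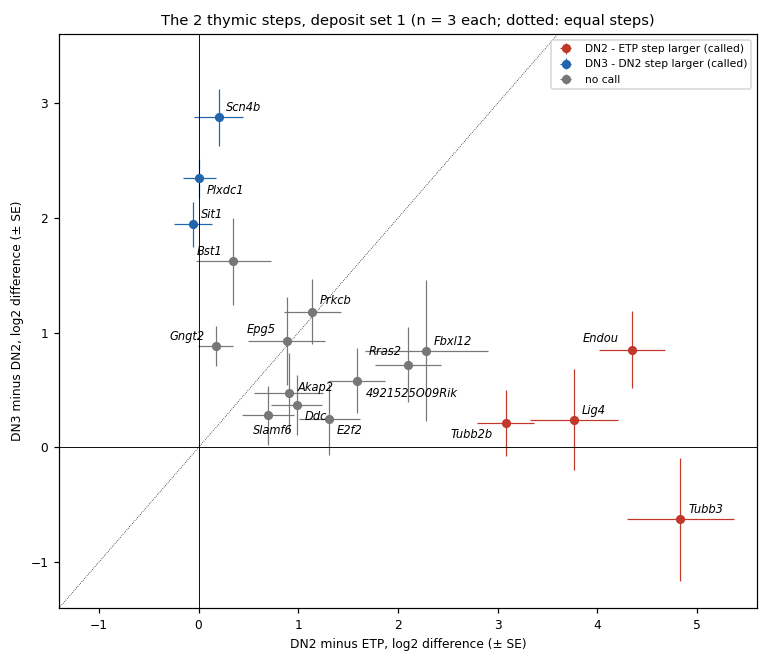
The ETP to DN2 difference (horizontal axis, log2) against the DN2 to DN3 difference (vertical axis, log2) for each member in set 1, with bars of 1 SE and a dotted line of equal steps. Tubb3, Endou, Lig4 and Tubb2b lie far to the right of that line, and Scn4b, Plxdc1 and Sit1 lie high near 0 on the horizontal axis.

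The DN3 and pro-B arrays set against each other here are the ones that chose the members, and no other arrays hold pro-B cells. The differences between the 2 populations are therefore given as a description, with the intervals of the fit and with no test. The DN3 mean was above the pro-B mean for 12 members and below it for 6, and the median difference was 0.39. The limma thresholds of set 1, applied to this contrast, would pass 3 members higher in DN3 and 1 lower, where 2.92% and 5.14% of all genes pass, and nothing is read from these counts. All DN3 arrays lay above all pro-B arrays for 7 members and below for 3, where 10.1% and 16.8% of all genes did so.

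The largest differences toward DN3 were those of Tubb3 (1.99, 95% interval 1.40 to 2.58), Endou (1.87, 1.22 to 2.52) and Tubb2b (1.35, 0.60 to 2.10). Tubb3 entered the list just past the threshold in pro-B, with a margin of 1.0039. Tubb2b arrays read 10.87, 10.60 and 11.01 in DN3 and 9.31, 9.55 and 9.57 in pro-B, more than 1 apart. The largest differences toward pro-B were those of E2f2 (-1.28, -1.86 to -0.70), Slamf6 (-0.998, -1.45 to -0.55) and Ddc (-0.61, -0.90 to -0.31). Without DN3 replicate 6, the lowest DN3 array of E2f2, its difference was -0.9998. The smallest differences were those of Akap2 (-0.18, -0.99 to 0.63), Epg5 (0.19, -0.46 to 0.84), Prkcb (0.26, -0.35 to 0.87) and Plxdc1 (0.26, -0.15 to 0.68). Lig4 was 0.96 above pro-B in DN3 (0.24 to 1.68) and Bst1 0.89 (0.32 to 1.46).

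**Figure D5:**
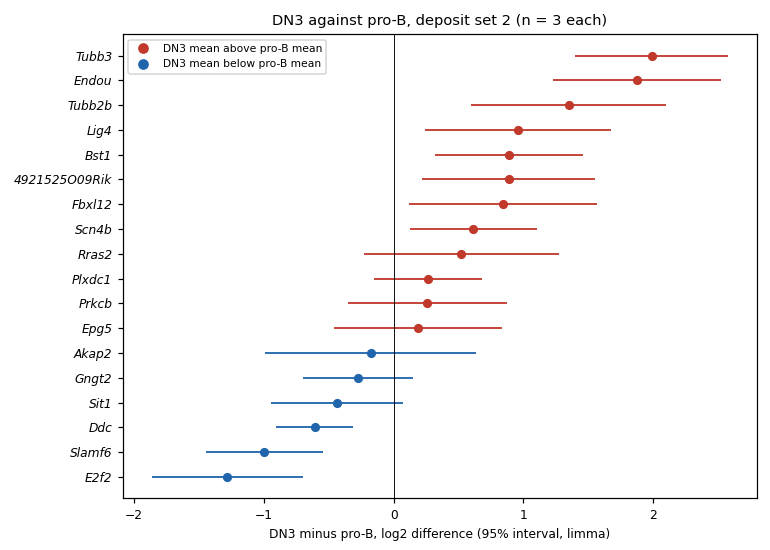
Log2 difference between DN3 and pro-B in set 2 for each member, with 95% intervals from the limma fit, positive where DN3 is higher, and a line at 0. Tubb3, Endou and Tubb2b stand farthest to the DN3 side and E2f2 farthest to the pro-B side.

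Several members belong to wider gene groups, whose lists were drawn up with earlier results of these data known. Lig4 is among 18 measured genes of 20 listed for antigen receptor recombination and end joining. In set 1, 4 of the 18 were higher in DN3 than in ETP (Rag1, Rag2, Dntt and Lig4) and 0 lower, where 2.56% and 3.73% of all genes were called, while the median of the list was -0.02 against 0.02 for all genes. The partners of Lig4 in end joining did not pass the call in DN3 against ETP, with Xrcc4, which binds the ligase, at -0.67 (adjusted p = 0.506), Nhej1 at 0.59 (adjusted p = 0.0864) and Prkdc at -0.44 (adjusted p = 0.381). Xrcc6, the Ku70 subunit that binds broken ends, differed by 0.77 (adjusted p = 0.00262), under 2-fold. Between DN3 and pro-B, 3 of the list were higher in DN3 (Rag1, Dntt and Trp53bp1) and 0 lower, where 2.92% and 5.14% of all genes were called, with medians of -0.14 for the list and -0.02 for all genes.

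Prkcb and Sit1 are among 61 measured genes of 67 listed for antigen receptor chains and proximal signalling. In set 1, 13 of them were higher in DN3 than in ETP, with Lat (2.79, adjusted p = 1.48e-08), the adaptor of T cell receptor signalling, and Rasgrp1 (3.81, adjusted p = 2.43e-07) among them, and 16 were lower, such as the kinases Syk (-1.81, adjusted p = 0.0047) and Btk (-2.28, adjusted p = 2.89e-05), where 2.56% and 3.73% of all genes were called. The median of the list was 0.18 in that contrast. Between DN3 and pro-B, 17 were higher and 22 lower in DN3, where 2.92% and 5.14% of all genes were called, with a median of -0.40, Lat at 4.001 (adjusted p = 8.37e-12) and Btk at -2.98 (adjusted p = 5.96e-09). The members Prkcb, at 0.26, and Sit1, at -0.44, are in neither of these 2 counts. E2f2 is among 44 measured genes of 48 listed for DNA replication and repair. It was the only 1 of the 44 called higher in DN3 than in ETP, with 0 lower, where 2.56% and 3.73% of all genes were called. That count is near the share of all genes, and E2f2 was chosen for standing higher in DN3 than in ETP. E2f1 stood at -0.21 (adjusted p = 0.64) in the same fit. Between DN3 and pro-B, 2 genes of that list were higher and 11 lower in DN3, with a median of -0.55, beside 2.92% and 5.14% of all genes. E2f2 is among the 11, but these arrays chose it as a member, so its place there is not read as a test. Of 51 measured cell division genes of 55, 0 were higher and 35 lower in DN3 than in pro-B (median -1.11), beside 2.92% and 5.14% of all genes. In DN3 against ETP 0 of them were higher and 1 lower (median -0.29), beside 2.56% and 3.73%.

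The 2 adult ETP arrays of set 2 are described without a test. Their mean lay at least 1 below both the DN3 and the pro-B mean for 15 of the 18 members, the others being Sit1, Tubb3 and 4921525O09Rik, where 0.726% of all genes did so. Every adult ETP array lay below all DN3 and pro-B arrays for 17 members, Tubb3 being the other, where 6.88% of all genes did so. The DN3 and pro-B arrays were chosen high for these genes, so nothing is read from these counts. The adult ETP mean was above the ETP mean for 9 members and below it for 9. Rras2 averaged 6.15 in adult ETP and 7.48 in ETP, Bst1 5.40 in adult ETP and 6.70 in ETP, and Endou 6.03 in adult ETP and 4.92 in ETP, the widest gaps of the 18.

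The arrays carry 12 further probe sets for 10 of the members, and 8 members have no other. Both margins in set 2 were at least 1 for 6 of these 12 and above 0 for 11. For Rras2 the second probe set gave margins of 2.81 in DN3 and 2.03 in pro-B, for Bst1 2.33 and 1.496, for E2f2 1.06 and 2.16, and for Slamf6 1.43 and 2.09 on one and 1.15 and 2.09 on the other. Prkcb had a second probe set at 1.01 and 1.03 and another at 0.21 and -0.03, the only 1 of the 12 not above 0 in pro-B. For Endou the second probe set was at 2.25 in DN3 and 0.04 in pro-B, and for Plxdc1 at 0.83 and 1.38. The second probe sets of Ddc (0.33 and 0.29), 4921525O09Rik (0.58 and 0.24) and Akap2 (0.72 and 0.66) were, like that of Prkcb, under 1 on both sides. For these 6 genes the height above the progenitors depends on which probe set is read.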

How the data were processed

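The authors deposited log2 expression values made with RMA, per the submitters' processing notes. RMA corrects background, normalizes between arrays and summarises the probes of a probe set, and it compresses differences near background. The log base and the RMA version are not given in the sources used here, and the values are read as log2. Total RNA was amplified and labelled with biotin, per the labels' protocols. Arrays give no read depth, so the number of arrays limits the precision.

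Of 45101 probe sets, 64 are controls, 34945 name 1 gene, 932 several and 9160 none. Each of 18193 genes was read from the one of its probe sets that had the greatest average signal across the 36 arrays. Gene identifiers were looked up in a current RefSeq table, in which 204 probe sets found no match and 0 symbols changed. Akap2 keeps the symbol of the array annotation.

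Tests used the lmFit and eBayes functions of limma 3.58.1 (R 4.3.3), with 1 fit per set over its populations, and genes were called at an adjusted p under 0.05 and a log2 difference of at least 1. Tables were made with pandas 2.3.3 and numpy 2.4.6 and plots with matplotlib 3.10.9, under Python 3.11.15. For the members, the DN3 and pro-B contrast of set 2 is given without a test, since its arrays chose them. On simulated data with log2 differences of 1.5, 2 or 3, the fit recovered 86.4% to 100% of the changed genes. False calls numbered 3 to 7 among 18193 genes in a comparison. Differences near the threshold of 1 were not simulated. The text names the 12 members with the largest smaller margin, the 5 called members with the largest difference in each set 1 comparison with ETP or DN2, the 6 smallest in DN3 against ETP, in DN3 against pro-B the called members and the 4 smallest, members of a gene list, and genes at the threshold. Other genes named were chosen after their values were seen. The members and lists were chosen with earlier results of these data known. Alternatives were the scaling, the probe set, a filter on low genes, the fold threshold, array weights, the populations in the fit, the replicate block and leaving out arrays. For the member count and the DN3 condition in set 1, population medians in place of means were another.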

Additional observations from a re-analysis of the deposited data

Results flagged for a closer look

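In 2 of the 18 members, 1 of the 4 CLP arrays stood far from the other 3. For Tubb2b, CLP replicate 2 read 7.21, while the others read 6.12, 6.22 and 6.27, and the gap was 0.8622 of the range. For Sit1, CLP replicate 3 read 4.41, while the others read 4.86, 4.88 and 4.89, and the gap was 0.9378 of the range. Chance flags about 1 in 20 such groups.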

How the results depend on the processing

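Of 69 gene results past the thresholds, 0 reversed under any alternative run and 15 fell short under at least 1 of them. The 69 include the 3 members higher and 1 lower in DN3 against pro-B. The arrays of that contrast chose the members, so these are not counted as tests. The member count stayed between 15 and 21 when 1 array was left out. It was 15 with the mean of each gene's probe sets (14 of the 18 kept) and 17 with quantile normalization (16 kept). Taking the median of each population's arrays in place of their mean gave 20 (17 kept). The count was 19 without HSC replicate 5 (17 kept) and 18 without CLP replicate 1 (17 kept). Leaving out 1 array gave 15 to 18 members that meet the DN3 condition in set 1. The members called higher then numbered 15 to 18 in DN3 against ETP, 17 to 18 against LSK and 16 to 18 against HSC. They numbered 6 to 8 in DN2 against ETP, and 3 to 5 in DN3 against DN2 (lower 0 to 0), with 3 without DN3 replicate 2, DN3 replicate 3 or DN2 replicate 3. In DN3 against pro-B, whose arrays chose the members, those past the thresholds numbered 2 to 5 (5 without pro-B replicate 2), with 0 to 2 lower (0 without DN3 replicate 6, and 2 without DN3 replicate 4, pro-B replicate 1 or pro-B replicate 3). The first step was larger for 2 to 4 members (2 without DN2 replicate 1) and the second for 3 to 3. Leaving out low genes kept 13 members in the fit of set 1 and 9 in that of set 2. With that filter 2 members were called in DN3 against DN2, 1 passed as higher in DN3 against pro-B, and 0 had a larger second step. The filter took Scn4b, Plxdc1 and Sit1 out of the fit of set 1, so their steps were not tested again. DN3 against pro-B gave 7 members higher with quantile normalization, and lower 2 with centred arrays, 2 with array weights and 3 with no fold threshold, and the cause was not tested. The split over all genes in that contrast moved from 36.3% higher to 48.3% with quantile normalization. Centring moved the median of all genes in DN3 against HSC to 0.15.

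Uncalled differences near 0 reversed. Plxdc1 in DN2 against ETP was -0.0029 with array weights, and ran from -0.0525 to 0.0947 when 1 array was left out (below 0 without ETP replicate 2, DN2 replicate 1 or DN2 replicate 2). Sit1 there ran from -0.1585 to 0.0043 (above 0 without ETP replicate 2), and Gngt2 from -0.0244 to 0.3078 (below 0 without DN2 replicate 1). In DN3 against pro-B, Plxdc1 was -0.142 with the mean of probe sets, Akap2 0.0543 with quantile normalization, and Epg5 ran from -0.11 to 0.3911 (below 0 without DN3 replicate 4 or pro-B replicate 3).

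Same-numbered arrays of set 1, as deviations from their population means, had correlations of -0.05 to 0.11 (1 of 30 pairs over 0.1). Arrays with other numbers had correlations of -0.11 to 0.08 (60 pairs). With 3 arrays a population, these values cannot settle whether replicate numbers pair the samples. With the replicate block the counts were 17, 18, 17, 7 and 5 for DN3 against ETP, LSK and HSC, DN2 against ETP and DN3 against DN2, and E2f2 lost its call in DN2 against ETP (adjusted p = 0.0524). DN3 and pro-B share no replicate numbers, so that contrast had no block. Limits are 3 arrays a population, sets normalized apart, and pro-B in set 2 alone.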

Other observations

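The other beta-tubulin genes on the arrays, looked up after the members' values were seen, did not share the members' pattern. Tubb2a averaged 10.48 in DN3 and 8.75 in pro-B, against 9.33 in HSC, the highest progenitor mean of set 2, so it stood 1.16 above the progenitors in DN3 and -0.58 in pro-B. In set 1 it was higher in DN3 than in ETP by 2.58 (limma, adjusted p = 2.46e-05), and in set 2 higher in DN3 than in pro-B by 1.73 (adjusted p = 0.000287). Tubb4b was lower in DN3 than in pro-B (-1.51, adjusted p = 4.23e-07). Tubb5, the main beta-tubulin of dividing cells, differed by -0.15 between DN3 and pro-B (adjusted p = 0.498). Cross-hybridisation between near-identical tubulin transcripts was not tested.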
